A study of Mus musculus with 6 samples.

Results

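The imprinted growth genes described here are 10 genes: H19, Meg3, Peg3, Plagl1, Mest, Dlk1, Grb10, Ndn, Sgce and Cdkn1c. They were chosen by name and followed through every probe set listed under their symbol, against 18194 genes with such a probe set in the whole series. Of the 10, 9 had at least 1 probe set listed under that symbol alone, 36 probe sets in all. The single probe set for H19 is listed under 2 symbols, H19 and Mir675, so it is called the H19/Mir675 probe set below and stands outside the counts unless stated. Where a gene has several probe sets, its value is that of the brightest one, by the mean of all 6 arrays.

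The samples were cells sorted from the left ventricle of adult male Black Swiss mice aged 8 to 10 weeks, 1 week after surgery. Transverse aortic constriction (TAC) narrows the aorta and overloads the left ventricle with pressure. A sham operation served as its control, and per the labels 3 mice had TAC and 3 had the sham operation. The 6 groups were fibroblasts traced by Tie2-Cre after TAC and after sham, untraced fibroblasts of the Tie2-Cre mice after TAC and after sham, and endothelial cells after TAC and after sham, each measured on 1 array from 200 ng of total RNA. Tie2-Cre is a Cre recombinase driven by the Tek promoter, so that it marks cells in which that promoter is or once was active. The labels do not say whether the 3 mice of a surgery were pooled on an array or whether the populations of a surgery came from the same hearts. A difference between single arrays therefore has no replicate check, and in sorted bulk RNA fewer cells of a type and less RNA per cell cannot be told apart.

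An imprinted gene is transcribed mainly from the allele of one parent, under control regions whose DNA methylation differs between the parental alleles. H19, Meg3 and Cdkn1c are expressed from the maternal allele, as is Grb10 in most tissues, while Peg3, Plagl1, Mest, Dlk1, Ndn and Sgce are expressed from the paternal allele. Many of these genes act on growth before birth, are highly expressed in embryonic tissue and are turned down in most organs after birth. The arrays read RNA of both alleles together, so nothing below concerns allele use.

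The deposited values are intensities on a linear scale, and levels and differences below are log2 intensity. Array medians lay between 6.74 and 6.85. Fibroblast markers summed to 104375 and 109095 intensity units on the TAC arrays of traced and untraced fibroblasts and to 98608 and 95440 on their sham arrays, with 9 of 9 above the array median on each. On the endothelial arrays the same markers summed to 46353 after TAC and 3173 at sham, with 9 and 7 of 9 above the array median. Endothelial markers summed to 60089 and 73135 on the endothelial TAC and sham arrays, with 7 of 7 above the median. On the fibroblast arrays they summed to 2100 to 4878, with 2 to 5 of 7 above the median. Among them Tek stood at 10.7 and 11.14 on the traced and untraced TAC arrays and at 11.76 and 11.91 at sham. No other endothelial marker was above 8.1 on a fibroblast array. Cardiomyocyte markers summed to 4128 and 8380 on the endothelial TAC and sham arrays and to 896 to 1398 on the fibroblast arrays. The endothelial TAC array stands apart by its fibroblast markers. The cell type comparison is given also without it, while the endothelial TAC differences have no value without it. On the untraced TAC array 18S ribosomal RNA stood at 13.67, against 14.44 to 14.76 on the other arrays. Spiked-in control sequences, 9 probe sets, had medians of 12.08 and 12.24 on the endothelial TAC and sham arrays. On the TAC and sham arrays these medians were 11.49 and 11.69 for traced and 11.09 and 11.44 for untraced fibroblasts.

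Members of the group host or neighbour other imprinted transcripts. H19 contains the hairpin of Mir675 on the same strand, and Mest contains the hairpin of Mir335. The mature miRNAs of both hosts are shown because their host transcripts had the largest differences after TAC in fibroblasts among the 10 genes; the miRNAs themselves were not analysed here. Capitals mark the seed, bases 2 to 8, and the sequences are from RefSeq on GRCm38.p6. The 4 mature miRNAs have 4 different seeds.
mmu-miR-675-5p: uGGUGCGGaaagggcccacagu
mmu-miR-675-3p: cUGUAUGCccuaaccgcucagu
mmu-miR-335-5p: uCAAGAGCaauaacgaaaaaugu
mmu-miR-335-3p: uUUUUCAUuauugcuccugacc

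Promoter windows of 300 bases, from 250 before to 50 after an annotated start, were available for 7 of the 10 genes (RefSeq, GRCm38.p6). They were searched on both strands for GGGGCCCC, a motif described for the zinc finger protein Plagl1, and for TGCCGC, the motif that Zfp57 binds when it is methylated and through which it maintains imprints. The Zfp57 motif lay in a window of 4 of the 7 genes, Mest, Meg3, Plagl1 and Grb10, and in 13.1% of 27025 genes with a window. That share is not matched for windows per gene, 11 for the 7 genes against 32851 for all, nor for CG content. The motif holds the pair CG, and the windows with a match hold 13 to 45 such pairs. The other windows of the 7 genes hold 1 to 13, and the median over all windows is 7. The Plagl1 motif lay in the window of 1 of the 7, Peg3, and in 1.25% of all genes. A match is a run of letters, not a measured binding site. Mest has 3 windows and Meg3 has 2, and those printed were picked because they hold a match; 1 window of each gene holds none. They are Mest at chr6:30737800-30738099 on the plus strand, the gene with the largest difference after TAC in fibroblasts among genes with a window, Meg3 at chr12:109540746-109541045 on the plus strand, and Peg3 at chr7:6730370-6730669 on the minus strand, both of which were higher in fibroblasts. Capitals mark the matches on either strand, so that the Zfp57 motif reads GCGGCA where it lies on the opposite one, and the search finds no overlap between the motifs in these windows.
Mest: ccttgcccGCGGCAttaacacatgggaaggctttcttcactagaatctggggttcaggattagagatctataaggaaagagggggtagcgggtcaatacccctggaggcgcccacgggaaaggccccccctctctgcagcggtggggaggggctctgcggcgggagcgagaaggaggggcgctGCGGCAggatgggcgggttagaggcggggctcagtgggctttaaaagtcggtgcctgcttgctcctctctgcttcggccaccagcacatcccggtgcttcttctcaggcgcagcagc
Meg3: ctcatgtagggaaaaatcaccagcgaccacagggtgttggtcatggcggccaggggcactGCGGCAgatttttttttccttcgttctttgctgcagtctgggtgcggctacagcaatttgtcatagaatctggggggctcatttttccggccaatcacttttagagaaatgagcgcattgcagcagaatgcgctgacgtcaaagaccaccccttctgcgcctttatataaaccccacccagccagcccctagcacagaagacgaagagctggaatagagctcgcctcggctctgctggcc
Peg3: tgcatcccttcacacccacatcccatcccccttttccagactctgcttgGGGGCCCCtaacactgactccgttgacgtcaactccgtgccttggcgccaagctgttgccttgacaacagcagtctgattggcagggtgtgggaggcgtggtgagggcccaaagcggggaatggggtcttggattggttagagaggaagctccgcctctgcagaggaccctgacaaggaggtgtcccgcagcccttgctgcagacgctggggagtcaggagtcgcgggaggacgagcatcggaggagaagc

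The first comparison asks how the imprinted growth genes differed between cells of TAC and of sham hearts. The H19/Mir675 probe set and Mest were higher after TAC in all 3 populations, and Cdkn1c was lower in all 3. The other members differed by less than 2-fold in fibroblasts. Without regard to size, 33.9% of 12257 genes were higher in all 3 populations and 18.0% lower, together 51.9%. The H19/Mir675 probe set ranked number 3 from the top of 11624 in the fibroblast mean, a rank that rests on dim sham values. In either direction at least 2-fold in both fibroblast populations, 1 of 8 members above the array median was counted, Mest, and 2 of 9 with the H19/Mir675 probe set. The shares of all 11623 genes counted in this way were 4.33% higher, 1.79% lower and 6.12% in either direction. In traced fibroblasts alone the shares were 6.19% higher and 2.66% lower (8.85% together), and in untraced fibroblasts alone 4.98% and 2.95% (7.93% together). The median difference over the 8 members was -0.04, beside 0.05 over all genes.

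H19 is a maternally expressed long noncoding RNA that is abundant in the embryo and scarce in most adult tissues. Its probe set stood at 11.10 in traced and 10.33 in untraced fibroblasts after TAC, against 6.86 and 5.66 at sham. On the endothelial arrays it stood at 7.85 after TAC and 5.16 at sham. The 2 fibroblast TAC arrays were thus far above the other 4, and the sham values lay near or below the array median, where differences are shrunk and detection is not known. The differences were 4.23 in traced fibroblasts (18.8-fold), 4.67 in untraced fibroblasts (25.5-fold) and 2.68 in endothelial cells (6.42-fold). These folds are ratios of the listed intensities, and their true size is not known where sham is at or below the array median. In endothelial cells only the TAC array was above the median. The endothelial difference is read from the array that also carried fibroblast markers, and their part in it was not tested.

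Mest is a paternally expressed gene of the alpha/beta hydrolase family. It stood at 11.87 in traced and 11.16 in untraced fibroblasts after TAC, against 9.48 and 9.10 at sham. Both TAC levels were thus above both sham levels, and the share of all genes with such a gap is not given here. Endothelial cells carried 12.79 after TAC and 11.86 at sham. The differences were 2.39 (5.24-fold) and 2.06 (4.16-fold) in traced and untraced fibroblasts and 0.93 (1.90-fold) in endothelial cells. In the fibroblast mean Mest ranked number 161 from the top of 11624 genes. The gene has 1 probe set, and no second one bears on these values.

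Cdkn1c encodes p57, an inhibitor of cyclin-dependent kinases that stops the cell cycle. It stood at 8.49 in traced and 8.60 in untraced fibroblasts after TAC, against 9.47 and 9.78 at sham. Endothelial cells had 10.29 after TAC and 11.94 at sham. Every TAC array was below the sham array of its own population. The differences were -0.99 in traced fibroblasts (1.98-fold lower), -1.18 in untraced fibroblasts (2.27-fold lower) and -1.65 in endothelial cells (3.14-fold lower). The traced value lies just inside the 2-fold line, so Cdkn1c was not counted above, and it was counted when arrays were scaled to their 75th percentile or quantile normalized again. Among 11158 genes, the endothelial difference ranked number 39 from the bottom. Of the 10 proliferation markers 9 had a probe set, and all 9 were at least 2-fold higher after TAC in both fibroblast populations and in endothelial cells (medians 3.22 and 3.94); their part in the values of H19, Mest and Cdkn1c was not tested. The 7 mural cell markers summed to 9011, 7870 and 9420 intensity units after TAC in traced fibroblasts, untraced fibroblasts and endothelial cells, against 9071, 9281 and 14963 at sham, and 6 or 7 of 7 were above the array median on every array. Of these 7, 3 were at least 2-fold lower in both fibroblast populations, Myh11, Abcc9 and Kcnj8, and 2 in endothelial cells, Myh11 and Abcc9. In traced and untraced fibroblasts Cspg4 differed by 0.61 and 0.83 and Pdgfrb by 0.4 and 0.26. Rgs5 differed by 0.28 and -0.03 there, and Notch3 by -0.49 and -0.62. In endothelial cells Pdgfrb differed by 0.11, Cspg4 by -0.2, Kcnj8 by -0.55, Rgs5 by -0.65 and Notch3 by -0.83. The part of the mural markers in the Cdkn1c values was not tested.

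**Figure D1:**
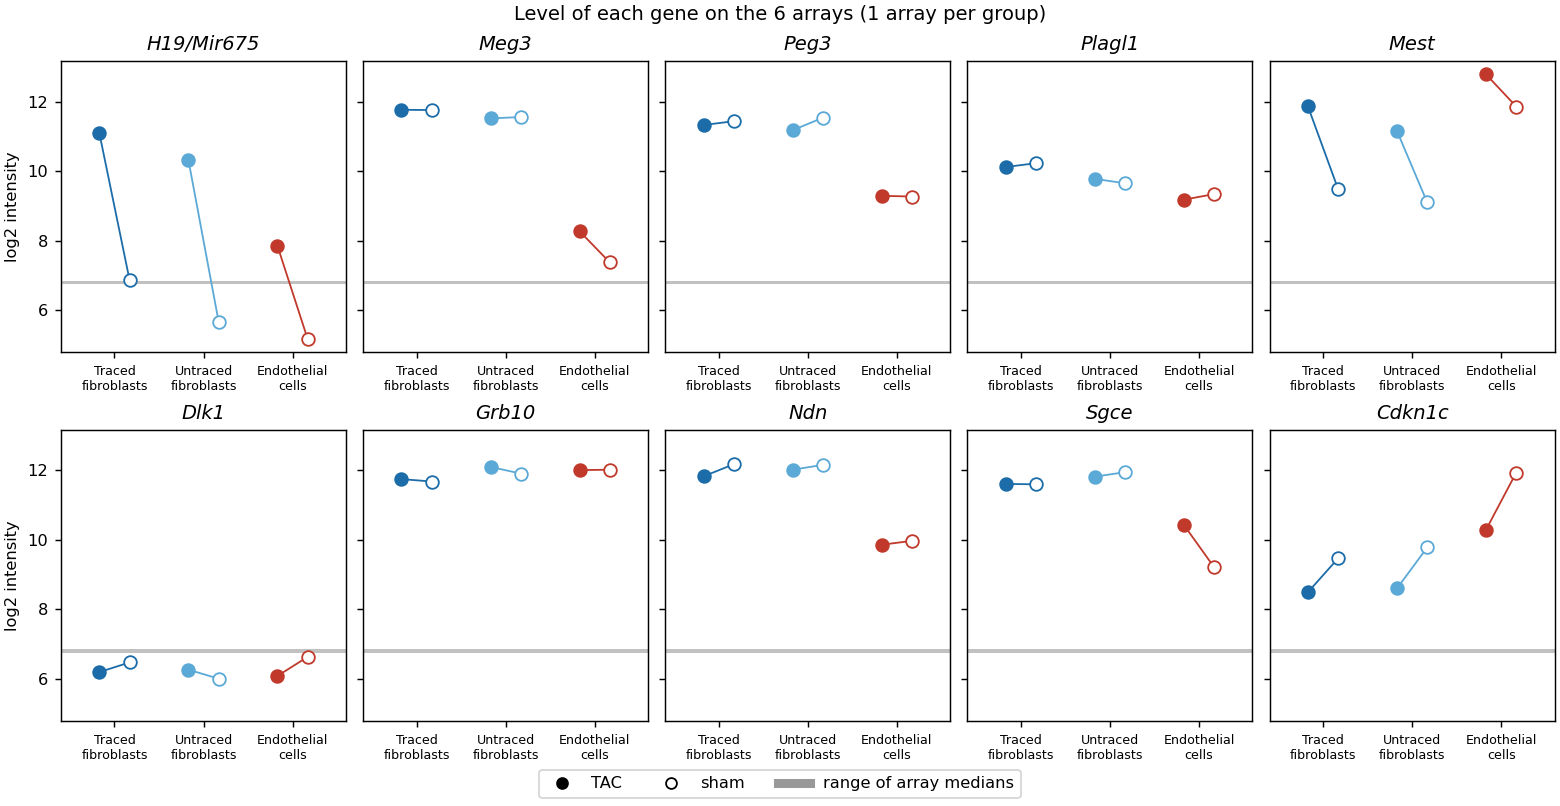
Level (log2 intensity) of each gene on the 6 arrays, 1 array per group, with TAC as filled and sham as open points, joined within a population; the grey band is the range of the array medians, 6.74 to 6.85. H19/Mir675 and Mest stand higher and Cdkn1c lower on the TAC array of each of the 3 populations, and Dlk1 lies under the band on all 6 arrays.

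The remaining members differed little between TAC and sham fibroblasts. Peg3, a paternally expressed zinc finger gene, was at 11.33 and 11.18 after TAC and at 11.44 and 11.54 at sham, in traced and untraced cells in that order. Its differences of -0.12 and -0.36 had the same sign at 3 of 3 probe sets above the array median. Ndn, which encodes the growth suppressor necdin, differed by -0.35 and -0.14. Its 5 probe sets above the median were all below 0 in traced fibroblasts (-0.35 to -0.08), while 3 of 5 were above 0 in untraced fibroblasts.

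Plagl1, a zinc finger transcription factor that regulates other imprinted genes in the mouse, differed by -0.11 in traced and 0.14 in untraced fibroblasts. Grb10, an adaptor that restrains signalling from the insulin and IGF1 receptors, differed by 0.06 and 0.19. Its 3 probe sets did not share a sign: they ranged from -0.25 to 0.09 in traced and from -0.67 to 0.19 in untraced fibroblasts. Sgce, the epsilon-sarcoglycan gene, differed by 0.01 and -0.13. In each of these genes the difference was small beside those of H19 and Mest.

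Dlk1 encodes a membrane protein related to Notch ligands that holds back the differentiation of fat cells. It was below the array median on all 6 arrays, at 6.19 and 6.26 in traced and untraced fibroblasts after TAC, 6.47 and 6.0 at sham, and 6.08 and 6.63 on the endothelial TAC and sham arrays. Neither of its 2 probe sets was above the median on any array. It is therefore a member with no readable difference here.

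In endothelial cells 2 of 8 members were at least 2-fold different, Sgce higher and Cdkn1c lower, where the shares of 11157 genes were 10.9% higher, 1.83% lower and 12.7% in either direction. The H19/Mir675 probe set would add 1 on the higher side. Sgce stood at 10.43 after TAC and 9.21 at sham, a difference of 1.22. Its second probe set, below the array median on all 6 arrays, gave -0.37, and the mean of both gave 0.43, which ends the 2-fold count. Meg3, a maternally expressed long noncoding RNA, stood at 8.27 after TAC and 7.37 at sham, a difference of 0.90. The 11 Meg3 probe sets gave -0.29 to 2.58 for this difference, with 8 above 0, so its size depends on the probe set. After the brightest, the next in brightness gave 2.58, 1.31 and 1.56. Their endothelial sham levels of 6.08, 6.59 and 6.62 lay below the array median. Values below 0, at -0.29, -0.10 and -0.12, came from dimmer probe sets, at 5.64 to 6.86 on the endothelial arrays.

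Both Sgce and Meg3 are genes with higher levels on the fibroblast arrays, and the fibroblast markers were at least 2-fold higher on the endothelial TAC than on the endothelial sham array for 9 of 9 (median 4.39). Peg3 and Ndn were also higher on the fibroblast arrays, and differed by 0.02 and -0.11 in endothelial cells. Whether fibroblast RNA on the endothelial TAC array enters the Sgce and Meg3 values was not tested. Grb10 at -0.01 and Plagl1 at -0.16 completed the endothelial values. The spread of the 3 populations within each gene is shown in the plot of differences after TAC.

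**Figure D2:**
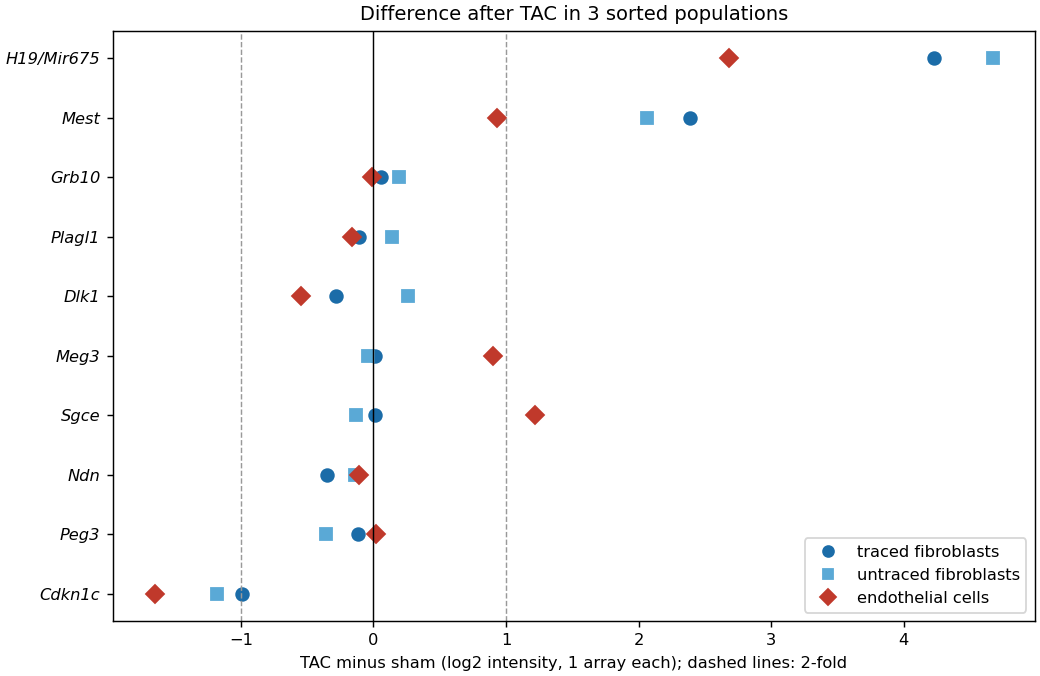
TAC minus sham (log2 intensity, 1 array each) for each gene in traced fibroblasts, untraced fibroblasts and endothelial cells; dashed lines mark a 2-fold difference. H19/Mir675 lies beyond the upper line in all 3 populations, at 2.68 to 4.67, Mest in both fibroblast populations, and Cdkn1c near or beyond the lower line, at -1.65 to -0.99.

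The second comparison asks how fibroblasts differ from endothelial cells. Meg3, Ndn and Peg3 were higher in fibroblasts, by 14.3-fold, 4.39-fold and 4.28-fold. For this test the traced and untraced arrays of a surgery were averaged, which leaves 2 values per cell type, 1 per surgery, and limma was fitted over 12257 genes with Benjamini-Hochberg adjustment. Calls needed both a 2-fold difference and an adjusted p under 0.05. Of 8 members tested 3 were called higher in fibroblasts and 0 higher in endothelial cells by limma; at an unadjusted p under 0.05 with no size needed these counts were 5 and 1, where 24.0% and 11.6% of all genes were counted (35.6% together). By the adjusted rule, over all genes 11.5% were called higher in fibroblasts and 6.50% higher in endothelial cells, together 18.0%. Since a cell type has 1 value per surgery, the spread that enters these p-values is that between surgeries, which may be partly technical. In limma the spread of each gene is also drawn toward that of all genes. The standard errors and p-values therefore do not measure the spread of the gene alone.

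Meg3 stood at 11.77 and 11.52 in traced and untraced fibroblasts after TAC and at 11.76 and 11.56 at sham, against 8.27 and 7.37 on the endothelial TAC and sham arrays. The 4 fibroblast arrays lay within 0.26 of each other and above both endothelial levels. The difference was 3.83 (standard error, SE, 0.37, limma adjusted p = 0.00833). It was 3.37 between the TAC arrays and 4.29 between the sham arrays. All 11 probe sets were higher in fibroblasts at both surgeries, by 1.26 to 3.90 between the TAC arrays and by 0.97 to 5.83 between the sham arrays.

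Ndn had 11.83 and 12.02 in traced and untraced fibroblasts after TAC and 12.18 and 12.16 at sham, against 9.86 and 9.97 on the endothelial TAC and sham arrays. Peg3 had the fibroblast levels given above, against 9.29 and 9.27 on the endothelial TAC and sham arrays. For both genes, as for Meg3, every fibroblast level was above both endothelial levels. The share of all genes with such a gap is not given here. The difference was 2.13 with a standard error of 0.23 for Ndn (limma adjusted p = 0.0103) and 2.10 with a standard error of 0.23 for Peg3 (limma adjusted p = 0.0104). These were nearly the same size at each surgery, 2.07 and 2.20 for Ndn and 1.97 and 2.23 for Peg3 on the TAC and sham arrays. The 3 calls held when each of the 6 arrays was left out, with adjusted p up to 0.0227 for Meg3, 0.0346 for Ndn and 0.037 for Peg3.

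Sgce stood at 11.61 and 11.82 in traced and untraced fibroblasts after TAC and 11.60 and 11.95 at sham, above both endothelial levels. Its difference of 1.92 did not pass (SE 0.46, limma adjusted p = 0.0531). It was 1.28 between the TAC arrays and 2.56 between the sham arrays. Without the endothelial TAC array the difference was 2.53 and passed (limma adjusted p = 0.0161), and it also passed without either traced array, at 0.0491 without the traced TAC array and 0.0466 without the traced sham array. Over the arrays left out the adjusted p ranged from 0.0161 to 0.0642. Without the endothelial TAC array 4 of 8 members were called, where 14.0% of all genes were higher in fibroblasts and 6.18% lower (20.2% together); without the endothelial sham array 3 of 8 were called, where the shares were 5.59% and 3.85% (9.44% together).

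Cdkn1c and Mest had lower levels in fibroblasts than in endothelial cells of the same surgery. The Cdkn1c difference was -2.03 (SE 0.69, limma adjusted p = 0.111), and that of Mest was -1.92 (SE 0.82, limma adjusted p = 0.176). Neither passed in this fit, whose spread holds the large TAC differences of both genes. Within a surgery, Cdkn1c differed by -1.74 between the TAC arrays and -2.31 between the sham arrays, and Mest by -1.27 and -2.57. With surgery as a block both were called, at adjusted p of 0.0039 and 0.013, and so was Sgce at 0.0127. That fit called 4 members higher in fibroblasts and 2 higher in endothelial cells, where 18.7% of all genes were called higher and 9.09% lower in fibroblasts (27.8% together).

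The H19/Mir675 probe set was 2.87 higher in fibroblasts than in endothelial cells between the TAC arrays and 1.10 higher between the sham arrays. The mean difference of 1.98 had an SE of 1.73 (limma adjusted p = 0.456). Plagl1 was 0.68 higher in fibroblasts (SE 0.22, limma adjusted p = 0.102). Grb10 differed by -0.16 (SE 0.22, limma adjusted p = 0.64). These Grb10 values are those of its brightest probe set. All 3 of its probe sets were lower in fibroblasts at both surgeries, the other two by -1.01 and -0.99 between the TAC arrays and by -1.11 and -0.49 between the sham arrays. The mean of the 3 gave -0.65 (SE 0.19, limma adjusted p = 0.0837). A p above the threshold does not show that levels were alike.

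**Figure D3:**
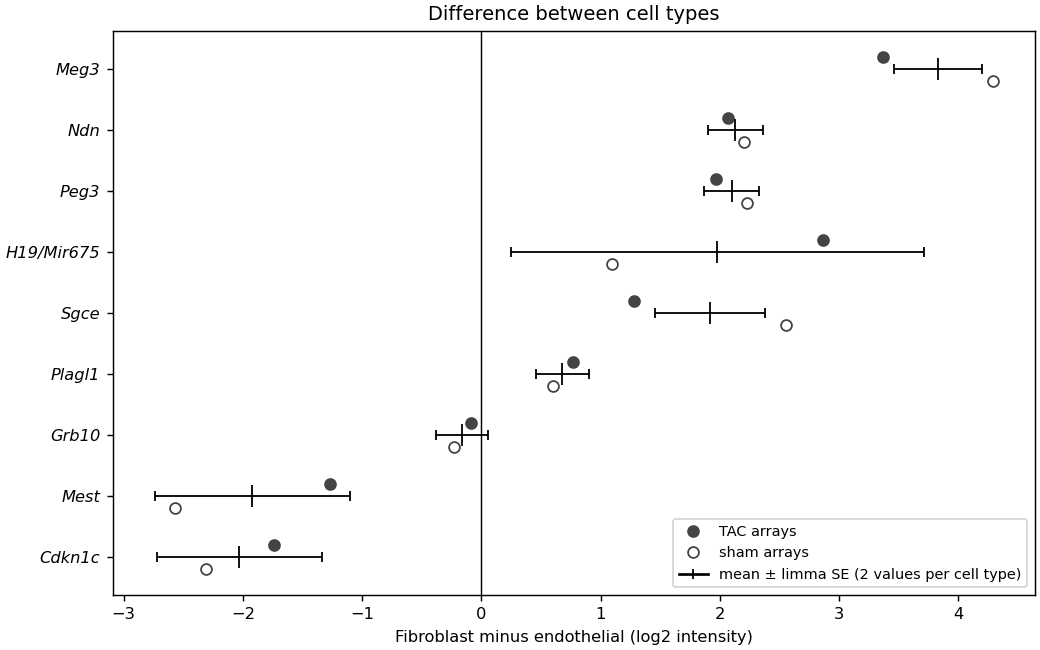
Fibroblast minus endothelial difference (log2 intensity) for each gene above an array median; bars are the limma mean and standard error over 2 values per cell type, and points are the differences within the TAC and the sham arrays. Meg3, Ndn and Peg3 lie to the right with short bars, and Mest and Cdkn1c to the left with points further apart.

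The third comparison sets fibroblasts traced by Tie2-Cre against untraced fibroblasts. Of 8 members 0 were at least 2-fold different in the same direction at both surgeries, beside shares of 0.0344% higher and 0.0344% lower (0.0688% together) of 11623 genes. The H19/Mir675 probe set was higher in traced fibroblasts by 0.76 after TAC and 1.21 at sham. Mest was higher by 0.71 and 0.38, and Plagl1 by 0.34 and 0.59. Igf2, the growth factor gene next to H19, was higher in traced fibroblasts by 0.62 and 0.63, with both of its probe sets above 0 at both surgeries. The spiked-in controls also stood higher on the traced arrays, at 11.49 against 11.09 after TAC and 11.69 against 11.44 at sham. The median traced minus untraced difference over all genes was -0.09. The part of such array differences in the values of this comparison was not tested.

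Meg3 was higher in traced fibroblasts by 0.26 after TAC and 0.21 at sham at its brightest probe set. All 11 probe sets were above 0 after TAC (0.26 to 1.51, median 0.77) and 8 of 11 at sham (-0.15 to 0.73, median 0.34). The probe sets share the same RNA and are not replicates. Within each lineage, 9 of 11 Meg3 probe sets were higher after TAC in traced fibroblasts (median 0.34) and 0 of 11 in untraced fibroblasts (median -0.39). The untraced TAC array, which had the lower 18S signal, enters both of these contrasts, and its part in them was not tested.

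**Figure D4:**
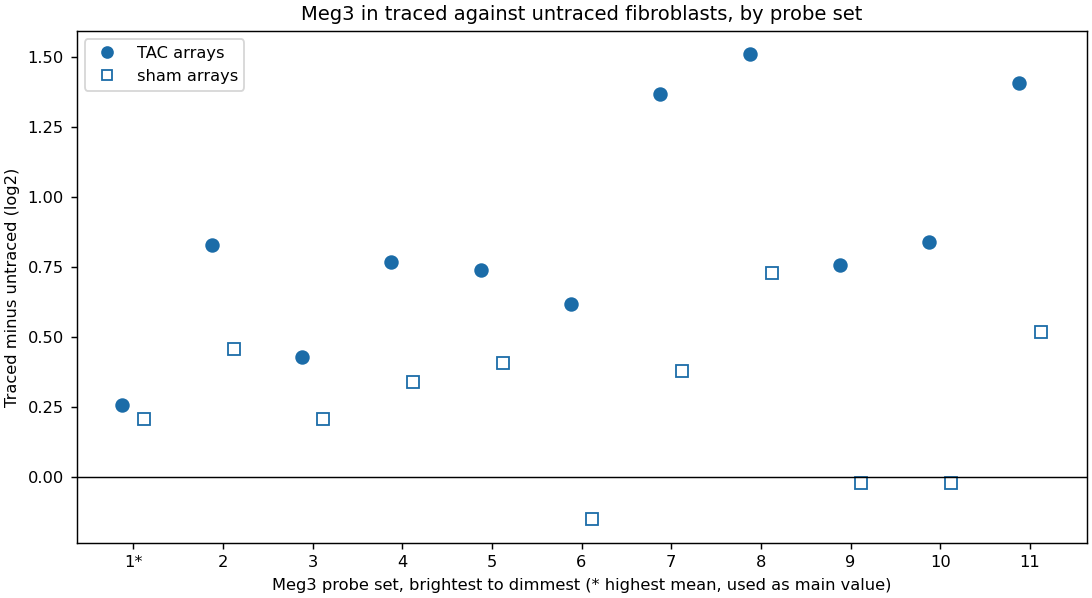
Traced minus untraced difference (log2 intensity) at each of the 11 Meg3 probe sets, brightest to dimmest, between the TAC arrays (filled circles) and between the sham arrays (open squares), 1 array per group. All 11 TAC values lie above 0, from 0.26 to 1.51, and 3 of the 11 sham values lie just below 0.

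Imprinted genes sit in clusters, and the genes beside the members were read from a list of 68 other genes reported as imprinted in at least 1 mouse tissue. Of these 57 had a probe set and 42 were above the median of an array. After TAC 1 of 37 tested in fibroblasts was at least 2-fold higher in both populations, Tfpi2, which encodes a protease inhibitor of the matrix (1.66 and 1.48), and 1 was lower, Nap1l5 (-1.51 and -2.49). The share of all genes counted in this way was 6.12%. Among the fibroblast arrays Nap1l5 was above the median only on the untraced sham array (7.61). It stood at 4.8 and 6.31 on the traced TAC and sham arrays and at 5.12 on the untraced TAC array. Its fall therefore rests on values with no known detection. The median over the 37 was -0.07, beside 0.05 over all genes.

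Igf2 and H19 share a locus and its enhancers. Igf2 stood at 9.45 and 8.82 in traced and untraced fibroblasts after TAC and at 9.85 and 9.21 at sham, differences of -0.40 and -0.39. On the endothelial arrays Igf2 stood at 11.11 after TAC and 11.55 at sham, a difference of -0.44. The H19/Mir675 probe set was 2.68 to 4.67 higher in the same populations. Igf2r, the imprinted receptor that carries IGF2 to the lysosome, differed by 0.11, 0.07 and 0.18 in traced fibroblasts, untraced fibroblasts and endothelial cells.

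Igf2 was called lower in fibroblasts than in endothelial cells, with a difference of -1.99 (SE 0.29, limma adjusted p = 0.0182). That call was lost when the endothelial sham array was left out (0.0583). Igf2r was 0.93 higher in fibroblasts (limma adjusted p = 0.055); with surgery as a block the adjusted p was 0.0339, with a difference under 2-fold.

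At the Dlk1 and Meg3 locus, Rian and Mirg are noncoding transcripts downstream of Meg3. Mirg was called higher in fibroblasts like Meg3 (2.40, limma adjusted p = 0.00833). Rian was 2.84 higher in fibroblasts but did not pass (limma adjusted p = 0.0805), and was called with surgery as a block (0.0224). Rian stood at 10.67 and 10.26 in traced and untraced fibroblasts after TAC and at 11.16 and 10.61 at sham, and at 9.01 and 6.66 on the endothelial TAC and sham arrays. Its endothelial difference was 2.35, on the array that carried fibroblast markers, whose part in it was not tested.

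Copg2, the gene next to Mest, was called lower in fibroblasts (-2.03, limma adjusted p = 0.0158). The call was lost at 0.0578 when the endothelial sham array was left out. After TAC it differed by 0.72 and 0.25 in traced and untraced fibroblasts, against 2.39 and 2.06 for Mest. Kcnq1 and the antisense transcript Kcnq1ot1 lie in the cluster of Cdkn1c. Kcnq1ot1 differed by -0.90 in traced fibroblasts, -1.47 in untraced fibroblasts and -0.62 in endothelial cells after TAC. Its untraced TAC level, 6.78, was close to the array median of 6.74. Kcnq1 differed by 1.22 in endothelial cells and was below the array median on every fibroblast array. Of other listed genes of the cluster, Phlda2, Cd81, Nap1l4, Tssc4, Slc22a18 and Osbpl5 differed by -0.14 to 0.46 in traced fibroblasts. In untraced fibroblasts these genes differed by -0.56 to 0.02. Peg10, the neighbour of Sgce, differed by 0.40 and 0.05 in fibroblasts.

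Among all 42, limma called 10 higher in fibroblasts and 4 higher in endothelial cells, where the shares of all genes were 11.5% and 6.50%. The median was 0.07, beside 0.22 over all genes. The largest on the fibroblast side were the amino acid transporter gene Slc38a4 (2.96, limma adjusted p = 0.00884), Qpct (2.87, 0.00944 by the same test), Mirg and Osbpl5 (2.33, 0.0312). In endothelial cells 7 of 37 were at least 2-fold higher after TAC and 0 lower, beside 10.9% and 1.83% of all genes. The largest were Dcn, the proteoglycan decorin, at 2.86, Gatm at 2.80 and Rian, followed by Atp10a at 1.86, Pon3 at 1.83 and Kcnq1. At sham Gatm (5.01), Rian (6.66), Atp10a (5.0) and Pon3 (6.5) lay below the array median and were included through the TAC array alone. A gene included in that way can hardly come out lower, and its sham value has no known detection. Dcn is itself one of the fibroblast markers.

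**Figure D5:**
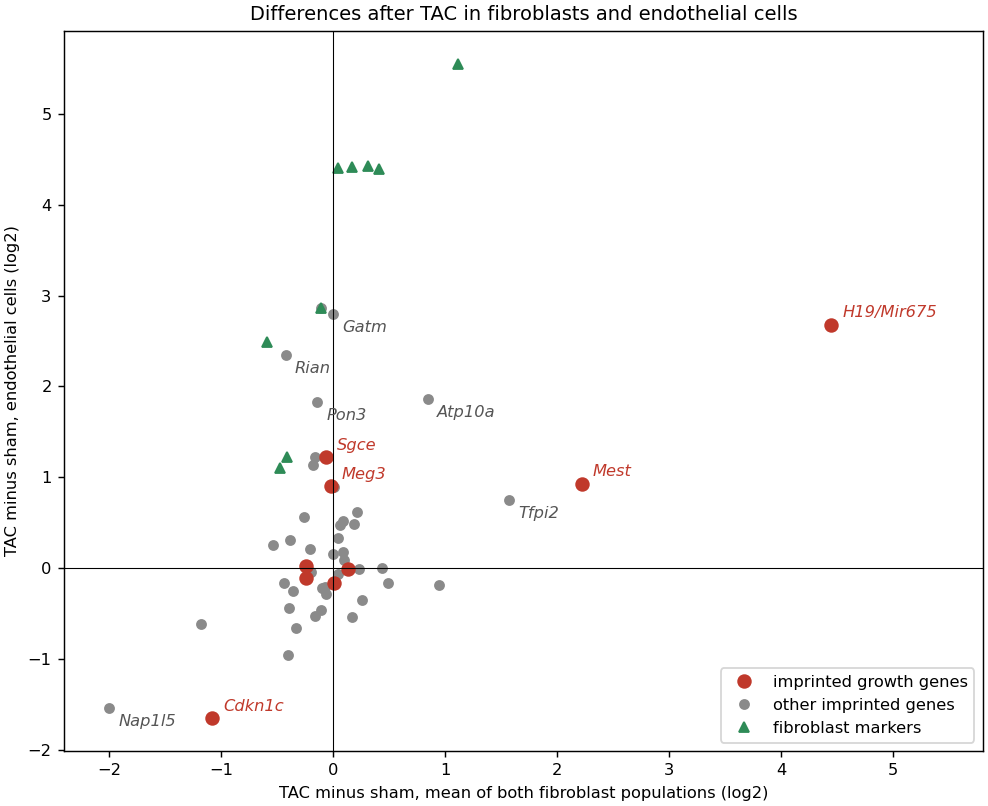
TAC minus sham (log2) in endothelial cells against the mean of both fibroblast populations, for the imprinted growth genes above an array median, the other imprinted genes and the fibroblast markers; 1 point per gene. H19/Mir675 and Mest lie to the upper right, Cdkn1c and Nap1l5 to the lower left, and the fibroblast markers run up the vertical axis, from 1.10 to 5.55 in endothelial cells.

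Genes that work with the members were read in the same way. Beside the counts in this paragraph and the next stand the shares over all genes. After TAC in both fibroblast populations these were 4.33% higher and 1.79% lower. Between cell types 11.5% were called higher in fibroblasts and 6.50% higher in endothelial cells. In the IGF axis, in which Grb10 acts, 1 of 14 genes was at least 2-fold lower in both fibroblast populations after TAC, the binding protein gene Igfbp3 (-1.86 and -1.62), and 0 were higher. In the same list 5 of 14 were called higher in fibroblasts over endothelial cells, among them the receptor substrates Irs1 (3.90, limma adjusted p = 0.00833) and Irs2 (2.59, 0.0182 by the same test), Igfbp6 (4.85, 0.0149) and Grb14, a relative of Grb10 (2.08, 0.0306), whose call was lost without either endothelial array. In the dystrophin complex, to which sarcoglycans belong, 3 of 7 were called higher in fibroblasts by the same test. They were sarcospan Sspn (3.81, 0.0191), delta-sarcoglycan Sgcd (3.80, 0.0175) and dystroglycan Dag1 (1.11, 0.0361, lost without either endothelial array). After TAC 0 of 6 differed 2-fold in fibroblasts. In endothelial cells 2 of 6 were at least 2-fold higher, Sgcb (1.62) and Sspn (1.56), beside 10.9% of all genes. The part of the fibroblast markers on that TAC array in these values was not tested.

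Of the other CDK inhibitors 1 of 5 was at least 2-fold higher after TAC in both fibroblast populations, Cdkn2b (2.07 and 2.39), and 0 were lower. Cdkn1b differed by -0.56 and -1.18 and Cdkn1a by 0.53 and -0.21 in traced and untraced fibroblasts, beside -0.99 and -1.18 for Cdkn1c. Between cell types Cdkn1a was called lower in fibroblasts (-1.38, limma adjusted p = 0.0271), a call lost without the untraced TAC array or either endothelial array. In endothelial cells Cdkn2c was 2.24 and Cdkn2d 1.5 higher after TAC, while Cdkn1c was at -1.65. In the Notch axis, to which Dlk1 is related, Notch4 was higher in both fibroblast populations (2.23 and 2.26), the only one of 11, and limma called 5 of 13 higher in endothelial cells and 2 higher in fibroblasts.

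The genes with the most similar profile over the 6 arrays were taken as those with the smallest root mean square difference after each gene was centred on its own mean, among 12257 genes. For Mest, the member with the largest difference upward among those counted, they were Rflnb (0.28 log2 units), Nes, which encodes nestin (0.33), and Zfp57 (0.39). Zfp57, the zinc finger gene named above, stood at 7.84 and 7.71 in traced and untraced fibroblasts after TAC, against 5.44 and 5.65 at sham. Its endothelial levels were 8.42 after TAC and 8.54 at sham. For Cdkn1c they were Cecr2 (0.21), 9330175E14Rik (0.23) and Inka2 (0.26). For the H19/Mir675 probe set, added after its values were seen, they were the fibrillar collagen gene Col11a1 (0.40), Wfdc18 (0.43) and P4ha3, a collagen prolyl hydroxylase gene (0.48). Cecr2 (4.69 to 6.44) and 9330175E14Rik (4.67 to 6.08) lay below the array median on every fibroblast array, where detection is not known. The same holds for Zfp57 in sham fibroblasts. All these distances describe 6 arrays and were not tested.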

How the data were processed

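RNA of 6 sorted samples was measured on Affymetrix mouse arrays, 1 array per group. The deposited intensity values of 45101 probe sets are on a linear scale (3.82 to 37205). The submitters' processing notes name RMA, which corrects background, normalizes between arrays and summarises probes; its version is not given in the sources used here, and that the log2 output was turned back to linear follows from the value range. No pair of arrays was identical. From these, log2 was taken with no further normalization. Symbols are those of GEO's platform table, brought up to date through gene identifiers, of which 99.4% were found. Of the probe sets 34958 had 1 symbol, 932 several and 9211 none. A gene was tested when its probe set with the highest mean lay above the median of an array compared. R 4.3.3 and limma 3.58.1 were used, and the fit was tested on simulated data. Only the number of arrays sets the precision. Comparisons of surgery and lineage set 1 array against 1, were not tested, and were counted at 2-fold in both populations or at both surgeries. Named genes were the 10 members, Igf2 and Igf2r, up to 6 called genes per list and comparison, and the 3 genes most similar to 2 members. Named outside that rule, after their values were seen, were Cdkn1b, Kcnq1ot1 and other genes of its cluster, and Peg10. The same holds for single cell type markers and the genes most similar to H19. Members and lists were chosen with earlier results of these data known. Alternatives covered the block, filter, probe set choice, scaling, pseudocount and each array left out; counting the H19/Mir675 probe set was added after seeing the data.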

Additional observations from a re-analysis of the deposited data

Results flagged for a closer look

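Outside the marker lists, in 4 named genes every fibroblast population differed one way after TAC and the endothelial cells the other way, each by more than 0.162. That spread was taken from how far the traced and untraced responses disagreed over 11623 genes. The share of all genes that met this condition is not given here, so the count has no base rate. Among the 9 fibroblast markers Pdgfra, Tcf21 and Ddr2 met it too, and the others did not. Of the other markers, Cd14, C1qa and Krt19 met it with endothelial cells higher after TAC. Cspg4, Tnnt2 and Actc1 met it with endothelial cells lower, at -0.2, -0.96 and -0.24. Rian was 2.35 in endothelial cells against -0.49 and -0.35 in traced and untraced fibroblasts. Igfbp6 was 1.48 in endothelial cells against -0.85 and -1.20 in fibroblasts. Slc38a4 was 0.26 against -0.48 and -0.61, and Dll1 was 0.23 against -0.56 and -0.20. The endothelial levels of Slc38a4 (4.55 after TAC and 4.29 at sham) and the fibroblast levels of Dll1 (6.15 to 6.71) lay below the array medians, so that the opposite direction of these 2 genes rests on values with no known detection. These differences between cell types were not tested, since each group has 1 array, and the endothelial TAC array is the one that carried fibroblast markers (summed intensity 46353, against 3173 on the sham array), whose part was not tested. At their brightest probe sets none of the 10 imprinted growth genes met this condition. A dimmer Meg3 probe set did, at 0.94 in endothelial cells against -0.24 and -0.56 in traced and untraced fibroblasts. Its endothelial sham level (6.19) lay below the array median.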

How the results depend on the processing

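Of the member values, 107 fibroblast minus endothelial results under the alternatives kept their side of the threshold and 10 crossed it, all toward a call, 8 of them for Sgce. With surgery as a block 6 members were called in place of 3; leaving out 1 array each gave 3 to 4. The count of members at least 2-fold different after TAC in both fibroblast populations was 1, and 2 after quantile normalization, after scaling to the 75th percentile, in untraced fibroblasts alone (Cdkn1c each time) and with the H19/Mir675 probe set. The endothelial count was 2; it was 1 with the mean of all probe sets, where Sgce was 0.43, 3 with the H19/Mir675 probe set, and 3 with a pseudocount of 32, where Meg3 was 2.13. That last setting also changed which Meg3 probe set is brightest; with the same probe set kept, Meg3 was 0.79, under 2-fold. Without probe sets whose suffix marks them as matching several transcripts the count was also 2, with Meg3 at 2.58 counted and Sgce, which lost its readable probe set, not. The lineage count was 0 under every setting run. Scaling to the 75th percentile moved the median of all genes by -0.20 in the endothelial TAC difference, -0.15 between cell types and -0.06 in fibroblasts. With the values as deposited and 3 other scalings or pseudocounts, the H19/Mir675 differences ran from 3.90 to 4.23 in traced fibroblasts, 4.0 to 4.67 in untraced fibroblasts and 1.95 to 2.82 in endothelial cells. Small differences changed sign with the scaling or probe set: Peg3 in endothelial cells was -0.18 and Grb10 in fibroblasts -0.13. The cause of these changes was not tested. No paired analysis was possible because every group has 1 array, numbered 1, so that replicate numbers pair nothing; the block above pairs cell types by surgery. Dim values, such as those of Dlk1 and of H19 at sham, have no detection call.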
